A study of Cricetulus griseus with 19 samples.

Results

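RNA levels were compared between cultures of Paradaux cells held under paradoxical feedback and cultures left to grow without control. Paradaux was engineered from CHO-K1, an established line from Chinese hamster ovary. The comparison took the 7 libraries whose culture condition is labelled paradoxical feedback and the 4 labelled uncontrolled growth, 11 of the 19 libraries in the series, and the library of the parental line is given beside them as a description. All came from the same line after a long-term culture of unstated length, and polyadenylated RNA was taken after 2 further days of growth at under 80% confluence. The compounds in the medium of each condition are not named in the sources used here, and each numbered replicate was taken as a separate culture from its label alone. The p-values therefore measure the spread between these samples, which may be partly technical. The parental library also held counts on the inserted circuit, given with that target below.

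In the Paradaux circuit, as background, cells make and sense auxin, a plant hormone that mammalian cells otherwise ignore, so that its level reports how dense the population is. The hormone controls the stability of a protein that lets cells survive an antibiotic and of an inducible form of caspase-9, a protease that starts programmed cell death. In paradoxical feedback the same signal acts on survival and on death, a wiring meant to keep cells that lose the sensor from overgrowing the culture. Cells that divide quickly need DNA replication factors, tubulin and nucleotides. Folding of new proteins rests on separate chaperones in the cytosol and in the endoplasmic reticulum, and the latter are raised by the unfolded protein response when proteins misfold there.

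Levels were measured per transcript target, meaning 1 RefSeq transcript record, as estimated counts, and are given in CPM, counts divided by library size after scaling between libraries. Log2 fold changes are paradoxical over uncontrolled and carry their standard error. A target was called at an edgeR adjusted p under 0.05. Of 46718 targets, 22108 passed the filter on low counts. The reference table gave a symbol to 334 protein-coding targets, of which 256 passed. The other 78 were not tested, 40 of them at 0 in all 11 libraries, and they include Actb and Ldha. Counts could not be summed to genes, so a low target does not show a low gene. A target is said to have whole counts where its estimated count lay within 1e-06 of a whole number in all 11 libraries, as for 152 of the 256. It is otherwise said to have shared reads, since a fractional count comes from reads divided between similar transcripts.

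The 4 uncontrolled libraries held 11.3 ± 0.853 M estimated counts (SD, n = 4) and the 7 paradoxical ones 12.03 ± 0.459 M (SD, n = 7). The first principal component, with 27.0% of the variance, placed the uncontrolled libraries at 94.2 to 148 and the paradoxical ones at -125 to -3.53. Paradoxical cultures 5 and 6 lay nearest to the uncontrolled cultures on it, at -3.53 and -33.3. Short targets, under 800 nt, held 12.2 to 13.4% of all counts without control and 8.50 to 12.4% under paradoxical feedback. The share on predicted noncoding transcripts was 3.21 to 3.52% and 1.92 to 2.50%, and for this measure the groups did not overlap. The part of these library differences in the results was not tested. None of the epithelial, mesenchymal, ovarian or blood cell markers was among the matched symbols, so the cell type could not be checked by them. In bulk RNA, fewer cells of a type and less RNA per cell cannot be told apart.

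Across the transcriptome, nearly as many targets were higher under paradoxical feedback as were lower. Of the 22108 tested targets, 3519 were called higher (15.9%) and 3314 lower (15.0%), together 30.9%, and 9322 had an unadjusted p under 0.05. The log2 fold change was at least 1 in size for 2138 of the higher and 2192 of the lower targets. In 20.4% of all targets the groups did not overlap, with every paradoxical culture above every uncontrolled one in 10.1% and below in 10.3%. Among called targets, the groups did not overlap in 2164 of the 3519 higher and 2166 of the 3314 lower, so separation is usual for a call. The balance of directions changed with the libraries and the scaling. Without uncontrolled culture 1, 2262 targets were called higher and 2536 lower, and without uncontrolled culture 2, 2330 and 2606. When libraries were scaled by total count only, 2863 targets were higher and 3902 lower. With all 19 libraries in 1 fit, 3455 of the 6833 calls were kept, and 73 of the 124 named ones described below. The form of the test used in edgeR version 3 called 2869 higher and 2087 lower.

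**Figure D1:**
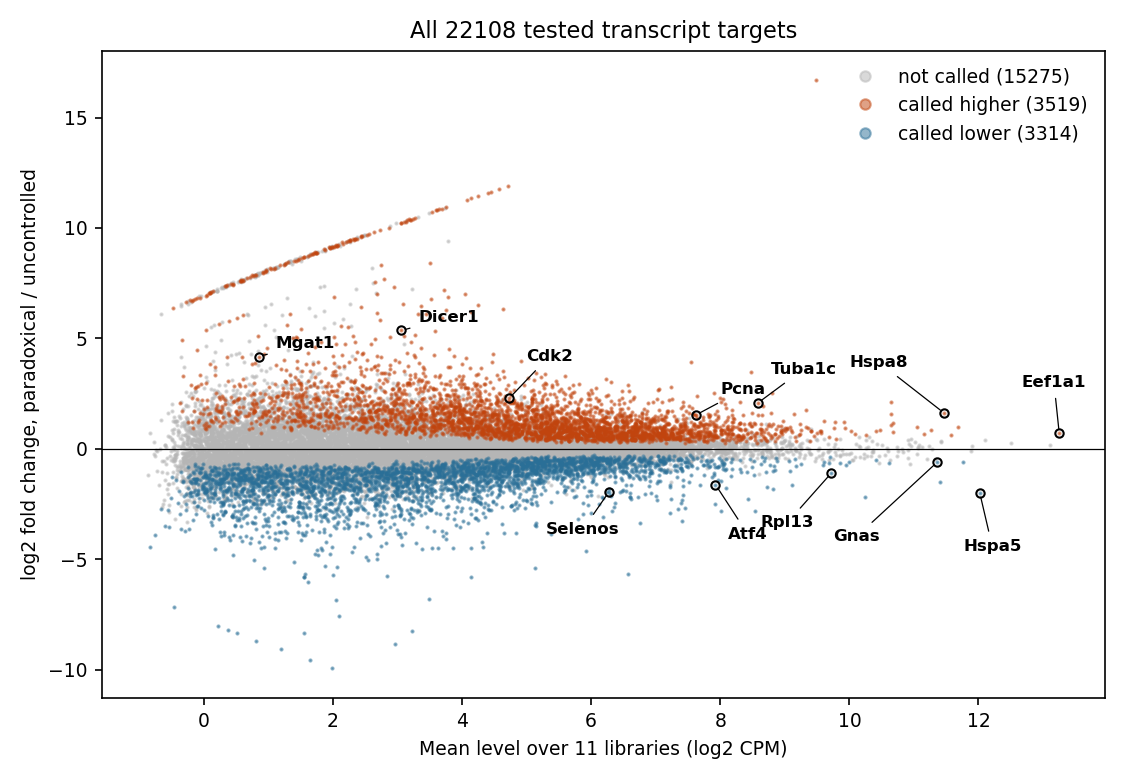
Log2 fold change of paradoxical feedback over uncontrolled growth (vertical axis) against mean level in log2 CPM (horizontal axis) for 22108 tested transcript targets, coloured by call. The 3519 higher and 3314 lower targets spread unevenly over the range of levels, with some named genes marked. Under a mean log2 CPM of 1, 5.42% were called higher and 15.9% lower. At 7 and over, 32.5% were called higher and 11.5% lower. The thin line of points at the upper left holds targets at or near 0 in every uncontrolled culture, whose fitted fold changes have no fixed size.

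Noncoding transcripts were mostly on the lower side. Among 2055 predicted noncoding targets, 635 were called lower (30.9%) and 79 higher (3.84%), with a median log2 fold change of -0.62. This held across lengths, since 37.3% of the shortest class, 34.0% of the middle one and 27.1% of the longest were lower. Predicted coding targets divided more evenly, with 16.8% higher and 13.4% lower of 19793. The only noncoding target with a symbol that was tested was Adapt15, a hamster RNA known to be induced by oxidants and DNA damage. It was at 583, 822, 452 and 432 CPM in uncontrolled cultures 1 to 4 and at 150 to 466 CPM (median 237) under paradoxical feedback, a log2 fold change of -1.20 ± 0.28 (adjusted p = 0.00742). Paradoxical culture 2, at 466 CPM, reached into the uncontrolled range. Adapt15 had an adjusted p of 0.120 with all 19 libraries in the fit.

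**Figure D2:**
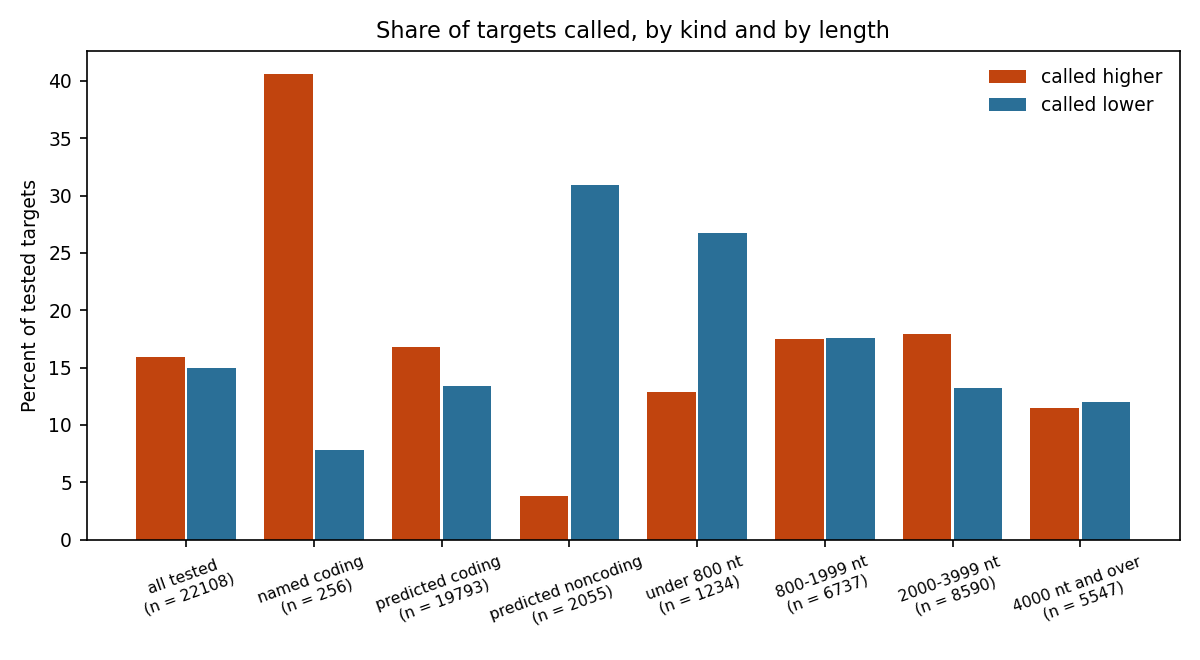
Percent of tested targets called higher (orange) and lower (blue) under paradoxical feedback, by kind of transcript and by length class, with the number tested below each pair of bars. Predicted noncoding targets were lower in 30.9% and higher in 3.84%, while named coding targets were higher in 40.6% and lower in 7.81%.

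Named genes leaned the other way. Of the 256 tested, 104 were called higher and 20 lower, 48.4% in all against 30.9% of all targets, and their median log2 fold change was 0.53 against 0.03 for the other targets. Over all tested targets the share called higher rose with level, from 5.42% at a mean log2 CPM under 1 to 32.5% at 7 and over. Named and other targets were not matched by level, and the part of level in this lean was not tested. The median was 0.71 for the 116 named targets with a length divisible by 3, which a record without untranslated ends would have, and 0.33 for the other 140. No such gap was seen in predicted coding targets, at 0.09 and 0.08. The median of a list below is therefore to be read against 0.53. Its calls are to be read against 40.6% higher and 7.81% lower among all named targets. Of the 256 named targets, 75 had every paradoxical culture above every uncontrolled one and 17 had every one below. Groups without overlap below are to be read against these counts. The part of record type in these values was not tested.

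Cytosolic chaperones were higher as a group. All 5 tested members of the list were called higher, with a median log2 fold change of 1.21. Hspa8, the constitutive Hsp70 protein of the cytosol, was at 886, 998, 1871 and 1050 CPM in uncontrolled cultures 1 to 4 and at 2516 to 4783 CPM (median 4147) under paradoxical feedback. Every paradoxical culture exceeded every uncontrolled one, and the log2 fold change was 1.64 ± 0.26 (adjusted p = 0.000882). Hsph1, which exchanges nucleotide on Hsp70, was at 73.5, 86.3, 108 and 83.8 CPM against 182 to 353 CPM (median 247), a change of 1.54 ± 0.18 (adjusted p = 0.000189). Hsp90aa1, the inducible cytosolic Hsp90, was at 449 to 510 CPM against 631 to 1677 CPM (median 1066), a change of 1.21 ± 0.21 with no overlap. Stip1, which hands clients from Hsp70 to Hsp90, rose by 0.94 ± 0.20, with 1 uncontrolled value inside the paradoxical range of 371 to 784 CPM. Tcp1, a subunit of the chaperonin that folds actin and tubulin and named to complete the list, rose by 0.63 ± 0.20 (adjusted p = 0.0337, shared reads). The Tcp1 call was lost in 9 of the 11 fits that left out 1 library, all but those without paradoxical culture 2 or 4, with adjusted p of 0.0519 to 0.109. The adjusted p of Tcp1 was 0.0600 with limma-voom, 0.0544 with the length trend removed and 0.0844 without paradoxical cultures 5 and 6.

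The main chaperone of the endoplasmic reticulum went the opposite way. Hspa5, also called BiP, was at 11188, 10346, 5278 and 4876 CPM in uncontrolled cultures 1 to 4 and at 1079 to 2827 CPM (median 1911) under paradoxical feedback. Uncontrolled cultures 1 and 2 were the highest, and all 4 lay above every paradoxical culture. The log2 fold change was -2.0 ± 0.29 (adjusted p = 0.000678), and it was called in all 23 alternative analyses. In TPM, which corrects for length, Hspa5 averaged 4092 in uncontrolled cultures against 646 for Hspa8, and 1048 against 2054 under paradoxical feedback. The ratio of Hspa5 to Hspa8 was 2.70 to 12.1 in uncontrolled cultures, 1.85 in the parental library and 0.279 to 1.07 under paradoxical feedback. Hspa5 was thus the more abundant of the pair in every uncontrolled culture, and in paradoxical culture 4 alone among the 7.

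Other genes of the endoplasmic reticulum divided. Of 11 tested targets in the list, 3 were called lower, 1 higher and 7 not called, with a median of -0.22 against 0.53 for named targets. Creld2, a secreted reticulum protein induced with Hspa5, was at 698, 665, 298 and 316 CPM against 105 to 221 CPM (median 132), a change of -1.75 ± 0.28. Its uncontrolled cultures split as those of Hspa5 did, with cultures 1 and 2 high. Atf4, the transcription factor of the amino acid and stress response, was at 356 to 493 CPM against 61.7 to 184 CPM, a change of -1.61 ± 0.25 with shared reads. Here the parental library, at 394 CPM, lay inside the uncontrolled range. Edem1, which sends misfolded glycoproteins to degradation, was at 1.10 to 2.79 CPM against 2.70 to 7.32 CPM and rose by 1.28 ± 0.38, but without uncontrolled culture 1, 2 or 3 its adjusted p was 0.0555 to 0.0832. Mbtps1, the protease that activates reticulum-bound transcription factors, was among the most precisely measured uncalled genes, at 0.23 with a 95% interval of 0.01 to 0.45 (adjusted p = 0.109). In the fit of all 19 libraries the adjusted p was 0.142 for Atf4 and 0.386 for Edem1, and limma-voom gave 0.0511 for Edem1.

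Selenoproteins divided, and 3 of those found in the reticulum fell. Selenos, a membrane protein of the degradation machinery for misfolded proteins, was at 192, 188, 102 and 102 CPM against 29.4 to 46.1 CPM (median 38.9), a change of -1.96 ± 0.21 (adjusted p = 0.000141). Cultures 1 and 2 were again the higher of the uncontrolled group, and no paradoxical culture reached the lowest of them. Selenok, a partner of Selenos in the same machinery, changed by -1.07 ± 0.24, and its value of 82.8 CPM in uncontrolled culture 3 lay inside the paradoxical range of 72.3 to 115 CPM. Selenom, a thiol protein of the lumen, fell by 0.97 ± 0.21 on the log2 scale, from 71.4 to 111 CPM to 22.7 to 54.2 CPM. Of 14 tested members of the selenium list, 3 were lower and 4 higher, the latter including Selenoi, a phospholipid enzyme (0.73 ± 0.14, shared reads), and Gpx1, described with redox genes. The other members called higher were Sephs2 and Selenow, named after their values were seen, whose calls were lost in 9 and 7 of the 11 fits that left out 1 library. Selenof and Selenot, also of the reticulum and also named after their values were seen, were not called, at 1.16 and 0.33. With all 19 libraries in the fit the adjusted p was 0.111 for Selenok and 0.0855 for Selenom. This list and those of tubulins, galactosyltransferases, sphingolipids, polyamines, peroxisomes, licensing and G protein subunits were assembled from the matched symbols.

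**Figure D3:**
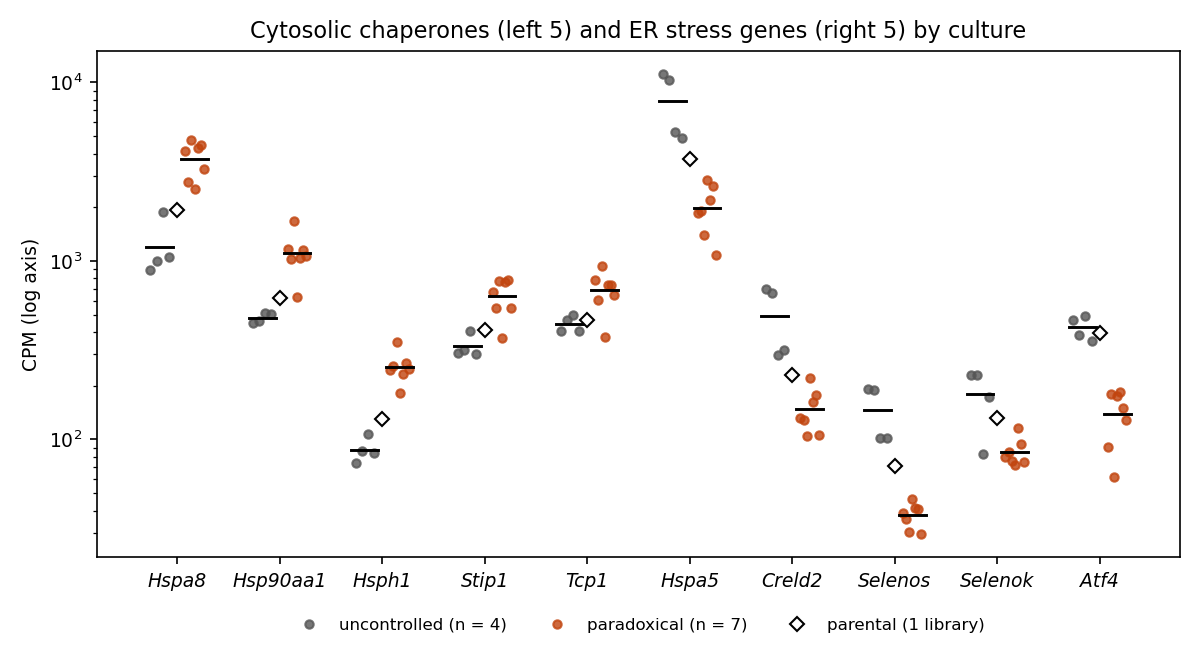
CPM on a log axis for 5 cytosolic chaperone genes (left) and 5 genes linked to stress of the endoplasmic reticulum (right), with 1 point per culture, a bar at the group mean and a diamond for the parental library. The 7 paradoxical cultures lie above all 4 uncontrolled cultures for Hspa8, Hsp90aa1 and Hsph1 and below them for Hspa5, Creld2, Selenos and Atf4.

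Genes of DNA replication and the G1/S transition were higher. Of 8 tested members, 7 were called higher and none lower, with a median log2 fold change of 1.58. Pcna, the sliding clamp of DNA polymerase, was at 62.4, 77.4, 115 and 101 CPM in uncontrolled cultures 1 to 4 and at 153 to 357 CPM (median 274) under paradoxical feedback, a change of 1.53 ± 0.24. Cdk2, a kinase that drives entry into S phase, was at 6.11 to 9.06 CPM against 29.0 to 52.8 CPM, a change of 2.31 ± 0.23 (adjusted p = 0.000111). Cdt1, which loads the replicative helicase, was at 6.50, 7.74, 14.2 and 11.2 CPM against 14.5 to 46.1 CPM, a change of 1.65 ± 0.32. For all 3 genes the groups did not overlap, and each was called in all 23 alternatives. Uncontrolled cultures 3 and 4 were above cultures 1 and 2 in all 3.

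Thymidine kinase Tk1 rose by 1.61 ± 0.39 with shared reads, with uncontrolled culture 3, at 52.3 CPM, above the lowest paradoxical culture at 44.1 CPM. Orc1, the largest subunit of the origin recognition complex, rose by 1.55 ± 0.37 with shared reads, and its uncontrolled cultures spread from 5.10 to 29.4 CPM. The cyclin Ccnd1 rose by 2.93 ± 0.49 with shared reads, but at 0.0789 to 0.764 against 2.27 to 6.17 CPM it is a scarce target in both groups. It passed the filter on low counts through the paradoxical cultures, which in effect set its direction. In the licensing list, which shares Cdt1 and Orc1, 3 of 8 targets were called, the other being Dbf4, the activator of the kinase that fires origins, at 0.77 ± 0.17. That share is near the 40.6% of all named targets called higher. The 5 not called are named after their values were seen. Orc2 and Orc4 were at -0.315 and -0.956, and Cdc7, Cdc45 and Orc5 at 0.26, 0.592 and 0.283. Ccnd1 had an adjusted p of 0.0624 with all 19 libraries in the fit.

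Genes of mitosis were also higher, and every tested tubulin rose. Of 7 mitosis targets, which include tubulins, 6 were called higher and none lower. Cdc25b, a phosphatase that activates mitotic kinases, was at 9.65 to 15.0 CPM against 35.6 to 56.6 CPM, a change of 1.92 ± 0.21 (adjusted p = 0.000171) with no overlap. Top2a, the topoisomerase that untangles sister chromatids, rose by 0.99 ± 0.20, with uncontrolled culture 4, at 465 CPM, inside the paradoxical range of 432 to 894 CPM. All 5 tubulin targets were higher with no overlap between the groups, beside 75 of all 256 named targets. Tuba1c was at 106, 132, 114 and 148 CPM against 298 to 661 CPM (2.09 ± 0.22), and Tuba1b at 635 to 783 CPM against 1012 to 2778 CPM (1.56 ± 0.26). The beta-tubulins Tubb6, Tubb4b and Tubb rose by 1.73 ± 0.23, 1.15 ± 0.20 and 0.84 ± 0.23, and for Tubb the adjusted p was 0.0591 without uncontrolled culture 1. All tubulin targets have shared reads, so the division among family members is uncertain. Top2a had an adjusted p of 0.0695 with all 19 libraries in the fit.

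**Figure D4:**
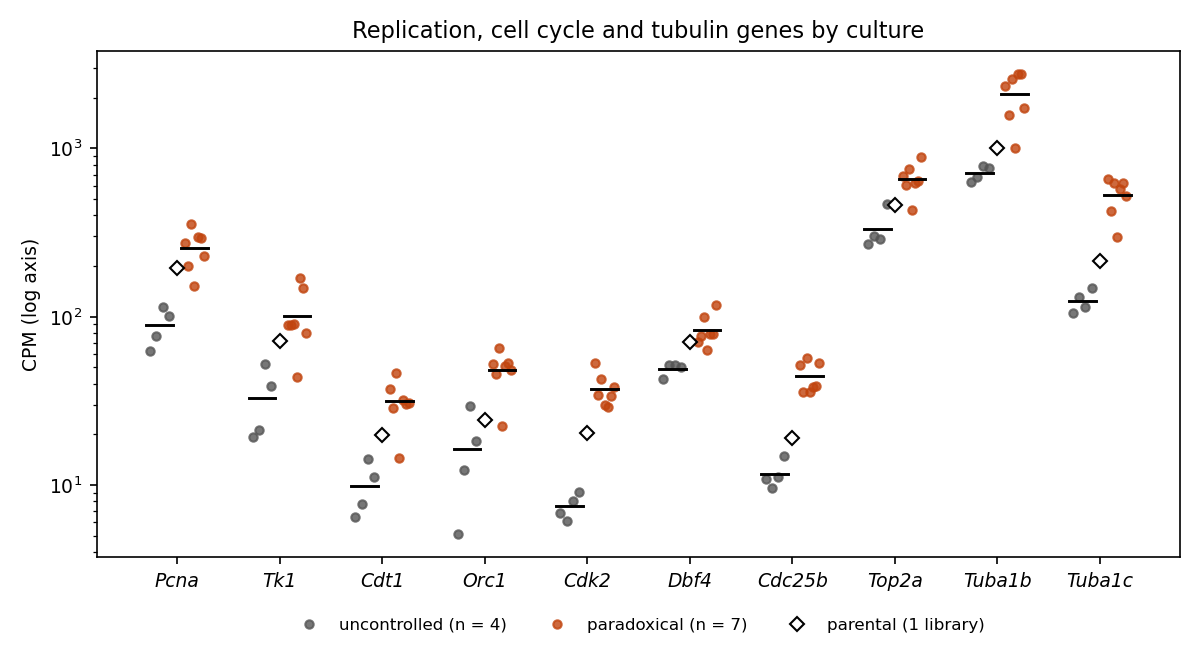
CPM on a log axis for 10 genes of replication, cell cycle control and the tubulin family, with 1 point per culture, a bar at the group mean and a diamond for the parental library. Paradoxical cultures lie above all uncontrolled cultures for Pcna, Cdt1, Cdk2, Dbf4, Cdc25b, Tuba1b and Tuba1c, and overlap them for Tk1, Orc1 and Top2a.

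Apoptosis genes moved in both directions. Of 6 tested, 3 were called higher, 2 lower and 1 not called. Casp2, an initiator caspase linked to DNA damage, was at 1.23, 0.286, 0.473 and 1.52 CPM against 2.22 to 7.65 CPM (median 4.42), a change of 2.33 ± 0.48 at a low level. Casp2 passed the filter on low counts only with the paradoxical cultures counted, so the filter favoured a rise. Bax, which opens the outer mitochondrial membrane, was at 102 to 130 CPM against 55.8 to 77.5 CPM, a change of -0.87 ± 0.13 (adjusted p = 0.000721). The Bax groups did not overlap, and the parental library, at 74.0 CPM, lay inside the paradoxical range. Casp8, the initiator of the death receptor pathway, was at 24.6 to 27.5 CPM against 29.7 to 42.3 CPM and rose by 0.42 ± 0.13. Casp9, the caspase of the mitochondrial pathway, was at 3.63 to 5.21 CPM against 1.29 to 3.43 CPM, a change of -0.87 ± 0.31 with shared reads. The Casp8 and Casp9 calls were both lost when any 1 uncontrolled culture was left out. The Casp8 call was also lost without paradoxical culture 7, and the Casp9 call without paradoxical culture 2, 3, 6 or 7. In those fits the adjusted p was 0.0551 to 0.101 for Casp8 and 0.0673 to 0.143 for Casp9. The caspase inhibitor Xiap was at 0.04 with an interval of -1.56 to 1.65, too wide to show a change at its level. None of the 4 calls named here was kept with all 19 libraries in the fit, the adjusted p being 0.0822 for Casp2, 0.106 for Bax, 0.156 for Casp8 and 0.0987 for Casp9. Scaling by library size alone gave 0.107 for Casp8. For Casp9 limma-voom gave 0.0551, no filter on low counts 0.0821, the edgeR version 3 method 0.116 and the fit without paradoxical cultures 5 and 6 0.0874.

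Among genes of DNA repair, 4 of 9 were called higher and none lower, a share near the 40.6% of all named targets called higher. Parp1, which marks strand breaks, was at 60.2 to 74.0 CPM against 115 to 195 CPM (median 155), a change of 1.24 ± 0.16 (adjusted p = 0.000315). Apex1, the nuclease of base excision repair, was at 5.84, 3.82, 1.66 and 8.81 CPM against 23.1 to 33.7 CPM, a change of 2.39 ± 0.29 with shared reads. Fancg, a member of the Fanconi anaemia core complex, rose by 1.11 ± 0.19 from 6.25 to 7.79 CPM to 12.9 to 19.8 CPM. These 3 genes did not overlap between the groups. Ercc4, a nuclease of excision repair, rose by 1.25 ± 0.42, with adjusted p of 0.0532 to 0.129 without uncontrolled culture 1, 2 or 3 or paradoxical culture 3 or 7. Its adjusted p was 0.249 with all 19 libraries, and it was also above 0.05 with limma-voom (0.126), the edgeR version 3 method (0.0780), library size alone (0.0677) and no filter on low counts (0.0558).

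Enzymes of nucleotide synthesis were higher in 6 of 7 tested cases. Adk, which returns adenosine to the nucleotide pool, was at 56.4, 74.7, 45.8 and 67.9 CPM against 109 to 135 CPM (median 123), a change of 0.98 ± 0.14 (adjusted p = 0.000497). Adsl and Gart, both of the purine pathway, rose by 0.93 ± 0.14 (shared reads) and 0.66 ± 0.12. In glycolysis, the glucose transporter Slc2a1 (0.86 ± 0.21) and phosphoglycerate kinase Pgk1 (0.80 ± 0.14) were called among 4 targets, both with no overlap. Across all named targets 40.6% were called higher. Gapdh was at 6548 to 9206 CPM against 7506 to 11022 CPM, a difference of 0.19 with an interval of -0.13 to 0.51. Slc2a1 had an adjusted p of 0.0961 with all 19 libraries in the fit.

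Mitochondrial targets divided. Pdha1, a subunit of pyruvate dehydrogenase, was at 9.65 to 11.5 CPM against 17 to 70.2 CPM, a change of 1.92 ± 0.37, and Sdhc of respiratory complex II rose by 0.58 ± 0.09 with shared reads. Ndufa1, a small subunit of complex I with a record of 402 nt, was at 69.2, 78.4, 69.8 and 68.5 CPM against 27.4 to 40.4 CPM, a change of -1.09 ± 0.13 (adjusted p = 0.000241). Redox genes were called higher in 3 of 7 cases, near the 40.6% of all named targets. Gpx1, which reduces peroxides, was at 13.3, 111, 57.5 and 128 CPM against 124 to 805 CPM (median 282), a change of 2.26 ± 0.62. Both groups spread widely and met at their edges, and the adjusted p was 0.0555 without uncontrolled culture 3. Prdx1, a peroxiredoxin, had a change of 1.09 ± 0.29 (shared reads), with adjusted p = 0.0590 without uncontrolled culture 1. Ndufa1 had an adjusted p of 0.0926 with all 19 libraries in the fit.

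Translation genes did not move together. Elongation factors Eef1a1 and Eef2 rose by 0.73 ± 0.17 (shared reads) and 0.61 ± 0.12, near the median of named targets. Eef1a1 was at 6280 to 7359 CPM against 8477 to 14542 CPM. Among ribosomal proteins, Rps4x was at 810, 1078, 942 and 944 CPM against 1203 to 2240 CPM, a change of 0.86 ± 0.17. Rpl13 was at 1301, 1394, 1274 and 1127 CPM against 425 to 819 CPM, a change of -1.10 ± 0.17, and Fau, which encodes a ribosomal protein fused to a ubiquitin-like one, at 120 to 182 CPM against 20.7 to 72.0 CPM (-1.94 ± 0.31). The latter have shared reads and short records of 682 and 463 nt, and all 3 were separated between the groups. In the list of 7 translation targets, 3 were called higher and none lower, since Rpl13 and Fau were named by their size of change and are not members. The share called higher is near the 40.6% of all named targets. In the fit of all 19 libraries the adjusted p was 0.0923 for Rpl13 and 0.0786 for Fau.

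Glycosylation enzymes gave 4 calls higher and 1 lower among 13 targets, with a median of 0.21. In the list of galactosyltransferases that extend glycans, 4 of 4 tested targets were called higher, beside 40.6% of all named targets. B4galt1 and B4galt2 are members of both lists. B4galt2 was at 3.46, 3.53, 0.158 and 3.30 CPM against 18 to 22.9 CPM (2.93 ± 0.33, shared reads), a narrow range in the 7 paradoxical cultures. B4galt5 rose by 2.41 ± 0.56 from 0.473 to 2.71 CPM and B4galt1 by 1.75 ± 0.36 from 0.552 to 1.44 CPM. B4galt5 passed the filter on low counts through the paradoxical cultures, which in effect set its direction. B4galt1 and B4galt2 passed only with the paradoxical cultures counted, so the filter favoured a rise. The count of 4 of 4 is therefore no support for a shared rise. B4galt6 rose by 0.98 ± 0.33, with adjusted p of 0.0505 to 0.139 without any 1 uncontrolled culture or paradoxical culture 1 or 7. Ext1, which polymerises heparan sulfate, was at 23.4 to 25.8 CPM against 38.2 to 62.0 CPM, a change of 1.07 ± 0.15. It was called in all 23 alternatives. Gmds, the first enzyme of GDP-fucose synthesis, was the 1 called lower, at -0.81 ± 0.17, and is named for that count after its value was seen. With all 19 libraries in the fit the adjusted p was 0.0970 for B4galt1, 0.0564 for B4galt5 and 0.228 for B4galt6. B4galt6 was also above 0.05 with limma-voom (0.134), the edgeR version 3 method (0.0917), library size alone (0.0634) and no filter on low counts (0.0635).

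Calls among lipid genes were few in the sterol list and more frequent in the sphingolipid and phospholipid list. Srebf2, the regulator of sterol synthesis, rose by 0.67 ± 0.15, from 76.8 to 94.8 CPM to 105 to 173 CPM. Of 8 sterol and fatty acid targets, 2 were called higher and 6 were not called. Scarb1, a receptor for high-density lipoprotein, was at 3.92 to 4.94 CPM against 12.5 to 22.7 CPM, a change of 1.98 ± 0.26 with shared reads. It was the 1 called of 4 lysosome and uptake targets. Of 7 sphingolipid and phospholipid targets, 4 were called higher, beside 40.6% of all named targets. They include the phospholipase Pld1 (1.66 ± 0.40). Pld1 passed the filter on low counts through the paradoxical cultures, which in effect set its direction. The other 3 were Ugcg, Sptlc1 and Sptlc2, enzymes of sphingolipid synthesis, whose calls were lost in 6, 8 and 10 of the 11 fits that left out 1 library. In the fit of all 19 libraries the adjusted p was 0.146 for Srebf2, 0.139 for Pld1, 0.108 for Ugcg, 0.0732 for Sptlc1 and 0.0995 for Sptlc2, and limma-voom gave 0.0914 for Pld1. Ptdss2, a phosphatidylserine synthase, was among the most precisely measured uncalled genes, at 0.21 with an interval of -0.03 to 0.45. Pex19, a peroxisome import receptor, was at 29.9, 30.8, 35.8 and 34.9 CPM against 61.9 to 79.4 CPM, a change of 1.18 ± 0.11 (adjusted p = 9.18e-05), and it was the 1 called of 5 peroxisome targets.

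Subunits of heterotrimeric G proteins differed among themselves. Of 8 tested targets, 7 alpha subunits and the beta subunit Gnb1, 5 were called higher and 1 lower. For all named targets the shares were 40.6% higher and 7.81% lower. The calls of Gna13 and Gnb1, named after their values were seen, were lost in 10 and 8 of the 11 fits that left out 1 library. Gna11, which couples receptors to phospholipase C, was at 3.06 to 3.81 CPM against 11.5 to 27.6 CPM, a change of 2.46 ± 0.30 with shared reads. Its relative Gnaq rose by 2.87 ± 0.74 from 0.268 ± 0.198 CPM (SD, n = 4), also with shared reads, and Gnai2, which inhibits adenylate cyclase, by 1.14 ± 0.30. Gnaq passed the filter on low counts through the paradoxical cultures, which in effect set its direction. Gnas, which stimulates adenylate cyclase and is the most abundant of these targets, was at 3642, 3346, 3032 and 3428 CPM against 1585 to 2799 CPM, a change of -0.60 ± 0.15. The groups did not overlap for Gnas, and the parental library, at 3100 CPM, lay with the uncontrolled cultures. Gnai1 was not called, at 1.23 with an interval of 0.07 to 2.39 (adjusted p = 0.0991). Among kinases, Map2k1 of the growth factor pathway was at 42.5 to 63.5 CPM against 105 to 176 CPM, a change of 1.22 ± 0.18 with shared reads. With all 19 libraries in the fit the adjusted p was 0.162 for Gnas, 0.233 for Gnaq and 0.0505 for Gnai2, and limma-voom gave 0.0819 for Gnaq.

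At the cell surface, 3 of 4 adhesion and protease genes were called higher, beside 40.6% of all named targets. Icam1, an adhesion molecule for white blood cells, was at 82.0, 88.2, 120 and 173 CPM against 205 to 677 CPM (median 409), a change of 1.76 ± 0.33. Furin, a proprotein convertase, was at 6.50 to 8.81 CPM against 12.8 to 35.8 CPM (1.81 ± 0.31, shared reads), and Adam17, a sheddase, rose by 0.94 ± 0.19. The groups did not overlap for these 3. Gja1, the connexin of gap junctions, rose by 1.24 ± 0.38, with adjusted p of 0.0520 to 0.0980 without uncontrolled culture 1, 2 or 3 or paradoxical culture 7. Among 6 transporters, 2 were called lower and 1 higher. Slc20a1, a phosphate importer, was at 251, 266, 295 and 193 CPM against 110 to 170 CPM, a change of -0.83 ± 0.15 with shared reads. Slc3a2, the heavy chain of amino acid exchangers, changed by -0.52 ± 0.14 (adjusted p = 0.0564 without uncontrolled culture 1). The drug efflux pumps Abcb1 and Abcb1b were not called, at -0.32 with an interval of -0.69 to 0.06 and -1.15 with an interval of -2.60 to 0.30 (adjusted p = 0.215). Ahr, a receptor for indole compounds, was at 2.67 to 5.13 CPM against 1.25 to 13.2 CPM and was not called (adjusted p = 0.714). In the fit of all 19 libraries the adjusted p was 0.119 for Adam17, 0.113 for Gja1 and 0.148 for Slc3a2, and library size alone gave 0.0546 for Gja1.

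The 5 largest changes of named targets were in targets with low or uneven levels in uncontrolled cultures, all with shared reads. Dicer1, which cuts microRNA precursors, was at 0, 0, 0.473 and 0.677 CPM against 4.44 to 21.9 CPM (median 13.2), a change of 5.36 ± 0.78. Smu1, a splicing factor, was at 0 to 0.677 CPM against 1.45 to 13.9 CPM, and Mgat1, which starts complex N-glycans, at 0 to 0.329 CPM against 1.45 to 3.24 CPM. Their changes were 4.96 ± 0.81 and 4.18 ± 0.62. Dicer1, Smu1 and Mgat1 passed the filter on low counts through the paradoxical cultures, so a rise was in effect set by it. Kif2c, a microtubule depolymerase, and 1 of 2 targets of Ap3m1, an adaptor of vesicle transport, rose by 3.40 ± 0.60 and 3.20 ± 0.51 from 0 to 7.34 and 0 to 7.96 CPM. Kif2c and this Ap3m1 target passed only with the paradoxical cultures counted, so the filter favoured a rise for them too. The other Ap3m1 target, named here for comparison after its value was seen, was at 0.08 with adjusted p = 0.771. The groups were separated for each of the 5 called targets, and in each at least 1 uncontrolled culture was at 0. The adjusted p was 0.0773 for Smu1 with limma-voom and 0.0513 for Kif2c with the edgeR version 3 method. With shared reads, a fold also depends on how reads were divided between similar transcripts.

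**Figure D5:**
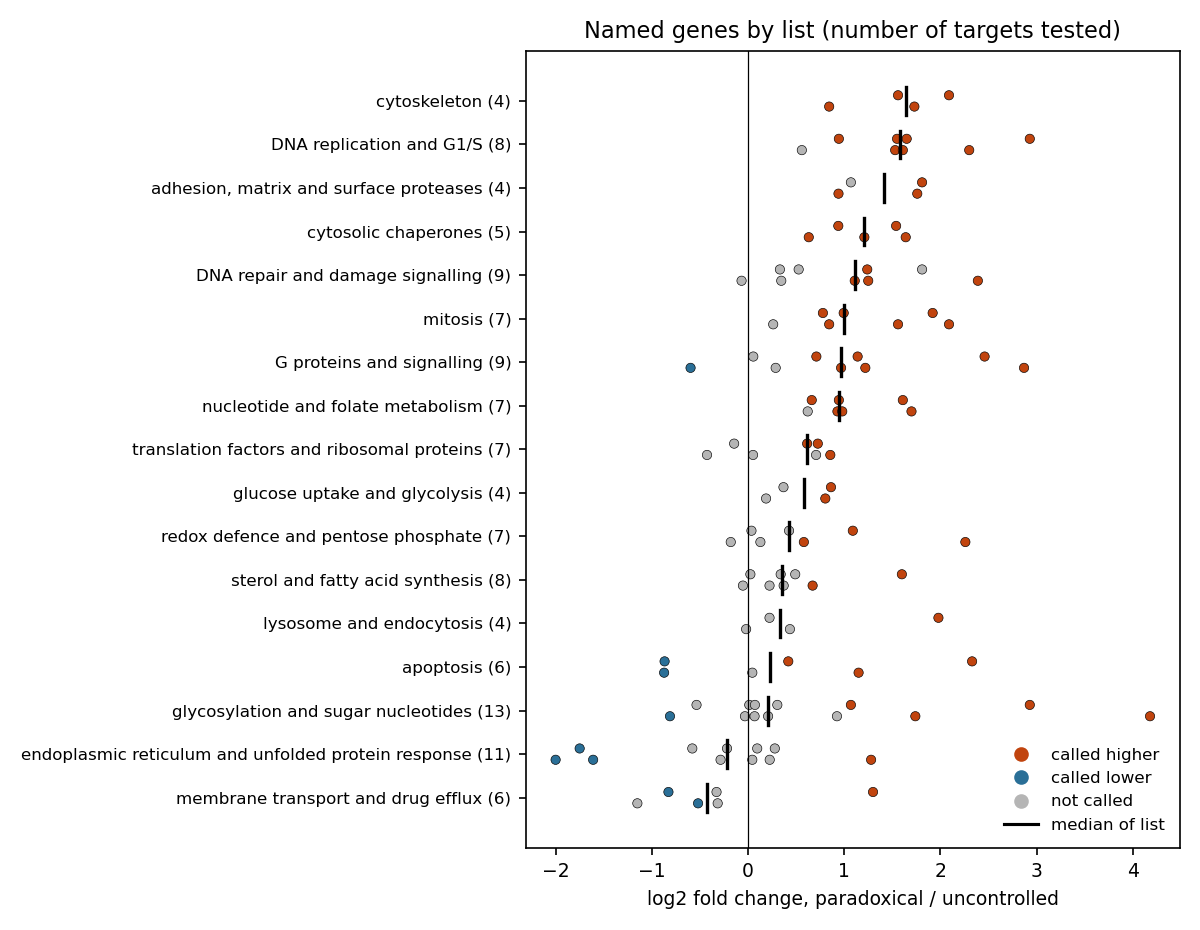
Log2 fold change of each tested named target (points, coloured by call) in the lists not assembled from the matched symbols that have at least 4 tested targets, with a bar at each list's median and the number tested in brackets. Medians of the lists drawn run from -0.42 for membrane transport to 1.65 for the cytoskeleton list, which holds only tubulins, and all 5 cytosolic chaperones lie on the higher side. Some genes stand in 2 lists.

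Some unnamed targets switched almost completely. XM_007645191.3, a predicted coding transcript of 1127 nt, had an estimated count of 0 in every uncontrolled culture, rounded to whole numbers, and stood at 694 to 1617 CPM (median 1026) in the 7 paradoxical cultures. Against a floor of 3 counts per library it was at least 4395-fold higher (adjusted p = 1.32e-05). After the same rounding it was at 0 in the parental library and in negative feedback cultures 1 and 2, but at 15126 to 20103 estimated counts in negative feedback cultures 3 to 7. XM_003498003.3, of 717 nt, was lower, at 123 to 186 CPM against 3.27 to 9.19 CPM, a change of -4.63 ± 0.22 (adjusted p = 2.38e-06). Its parental value, 5.53 CPM, lay inside the paradoxical range, and it had 1869 to 3320 estimated counts in negative feedback cultures 1 and 2 and 0 to 19.1 in cultures 3 to 7. XM_027420156.1 and XM_027440489.1 followed, at 6.32 ± 0.58 and -5.80 ± 0.51. All 4 have shared reads. XM_027420156.1 passed the filter on low counts through the paradoxical cultures and XM_027440489.1 through the uncontrolled ones. Their directions were in effect set by the filter. In all, 227 tested targets, none of them named, were at 0 in every uncontrolled culture. These passed the filter on low counts only through the paradoxical cultures, so their direction was fixed by the filter. In the same way, 8 targets at 0 in every paradoxical culture passed only through the uncontrolled ones. Named targets that were low in every or nearly every uncontrolled culture, such as Dicer1, Smu1, Mgat1, Ccnd1, Gnaq, Pld1 and B4galt5, also passed through the paradoxical cultures. Their direction was in effect set by the filter too. Casp2, Kif2c, 1 Ap3m1 target, B4galt1 and B4galt2 passed only with the paradoxical cultures counted, so the filter favoured a rise.

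The inserted circuit itself, 1 target of 8694 nt named vYM133_linearized_insertion in the files, was not called. It was at 1790, 2239, 2095 and 1660 CPM in uncontrolled cultures 1 to 4 and at 1237 to 2130 CPM (median 1952) under paradoxical feedback. The paradoxical cultures included both the lowest values and values near the top of the uncontrolled range. The parental library, at 1698 CPM, lay inside the ranges of both groups, so it is not a library of cells without the insert. The log2 difference was -0.16 with an interval of -0.55 to 0.23 (adjusted p = 0.530). As a single target it does not separate the genes of the circuit.

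The paradoxical cultures differed among themselves in how far they stood from the uncontrolled ones. Of the 104 named targets called higher, paradoxical culture 4 was the lowest of the 7 in 37 and culture 5 in 29, and of the 20 called lower they were the highest in 9 and 8. Over all called targets the same 2 cultures came nearest in 27.1 and 26.7% of those higher and in 24.0 and 25.8% of those lower, and culture 3 in 5.34 and 6.94%. The parental library, which was in no test, lay between both groups' ranges in 48 of the 104 higher named targets. It lay only within the paradoxical range in 33 and only within the uncontrolled range in 13. Of the 20 lower ones it lay between the ranges in 8 and inside either range in 6 each. For all called targets the parental value was more often inside the paradoxical range alone (40.9% of higher and 40.1% of lower) than inside the uncontrolled range alone (22.3 and 25.0%). The range of 7 cultures is wider by number than that of 4, so these shares do not rank the groups by nearness.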

How the data were processed

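Estimated counts per transcript target, deposited by the authors in 1 file per library, were made with Trim Galore and kallisto per the submitters' processing notes. For the index, neither build nor annotation nor tool versions are stated there. The deposited TPM values scale these counts by effective length and were used only to compare levels between genes. Symbols came from a RefSeq table of assembly CriGri-PICRH-1.0, matched by accession without version for 528 targets, 334 of them protein coding. No coordinates or sequences were used, and promoter motifs were not analysed here.

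Counts of the 11 libraries were rounded, filtered with filterByExpr, scaled by TMM and tested with edgeR 4.0.16 (glmQLFit, glmQLFTest) in R 4.3.3, with Benjamini-Hochberg adjustment over all 22108 targets. The fit was tested on simulated data. Standard errors are the log2 fold change divided by the square root of the F statistic. Totals per library were 10.3 to 12.8 M, and floors of 3 counts cover counting error only. Alternatives used DESeq2 1.42.0, limma-voom (limma 3.58.1), other scalings and filters, all 19 libraries, a replicate block, length offsets, whole-count targets and each library left out.

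Named genes follow a rule: of called symbols above a mean log2 CPM of 1, the 12 with the highest and 12 with the lowest change, then the 4 called members of each list with the lowest p, a fixed set, 4 uncalled list members, at most 4 unnamed targets, the insert and noncoding symbols. Members and lists were chosen with earlier results of these data known, and 12 lists were added once the matched symbols had been seen. Values of some genes that the rule names are not reported here.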

Additional observations from a re-analysis of the deposited data

Results flagged for a closer look

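Among 210 checks of the spread within a group, 16 had 1 culture far from the others of its group (Dixon's ratio, at 95%), where chance gives about 1 in 20. Values are log2(CPM + 0.5). In uncontrolled cultures the single values were B4galt2 at -0.60 in culture 3, B4galt5 at 1.68 in culture 4, Tubb6 at 5.11 in culture 4, and Ndufa1 at 6.30 and Ubb, a ubiquitin gene, at 8.98 in culture 2, with Dbf4 at 5.42 in culture 1. Under paradoxical feedback, culture 4 stood apart for Cdt1 (3.91), Orc1 (4.52) and the polyamine regulator Oaz2 (6.83). Culture 2 stood apart for Map2k1 (7.46), Pex19 (5.96) and Abcb1 (5.16), and culture 3 for Selenom (4.53) and Gnai2 (6.44). Slc2a1 was at 5.24 in culture 1 and Mbtps1 at 6.64 in culture 7.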

How the results depend on the processing

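No called named target changed sign in any of the 23 alternatives, and 44 of 124 were called in every one that tested them, 87 in every fit without 1 library. The number of targets called higher, lower and named was 2023, 1573 and 75 with all 19 libraries in the fit. It was 1577, 1198 and 74 with the replicate block, and 1181, 1125 and 78 among whole-count targets only, which are fewer. The method of edgeR version 3, chosen after seeing the data, called 2087 lower. Leaving out 1 library gave 2262 to 3525 higher, 2536 to 3624 lower and 93 to 128 named. Other settings stayed within 1.5 times, among them 3319 and 3148 without paradoxical cultures 5 and 6 (also chosen after seeing the data), though library size alone moved the split to 2863 higher and 3902 lower and the median of all targets from 0.03 to -0.07. The cause of these shifts was not tested. No sign of pairing by replicate number was seen, with deviations of same-numbered cultures correlated at -0.03 to 0.04. These correlations over all tested targets could miss a weak shared effect.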
